A study of Mus musculus with 40 samples.

Results

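The genes described here encode the potassium channels, the voltage-gated sodium channels and the pacemaker channels of the mouse heart, with their accessory subunits. They were chosen by name: every row of the expression tables whose symbol starts with Kcn, or with Scn or Hcn followed by a digit, except Kcnj8, was taken where its value was at least 0.5 in at least 3 libraries. This gave 65 of 16931 genes tested in males and 63 of 16956 in females, with 61 in both sexes and 67 in either. Kcnc1, Kcnc4, Kcnd3os and Kcnh1 passed in males and not in females, and Kcne1l and Kcnq5 in females and not in males. A further 3 rows in males (Kcnab3, Kcnq5 and Kcnrg) and 4 in females (Kcnab3, Kcne3, Kcnip4 and Kcnrg) stayed below the minimum and were not tested. Kcnq1ot1 and Kcnd3os carry channel names but are non-coding RNAs.

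Sodium channels carry the fast inward current that starts the cardiac action potential and lets it spread. Potassium channels carry the outward currents that end it and hold the resting potential, and in the mouse ventricle the fast transient outward current dominates this repolarisation. Pacemaker (HCN) channels pass an inward current on hyperpolarisation and are best known from the sinoatrial node, although Hcn2 is also made in ventricular muscle.

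The mice were CM-Il11-Tg animals, heterozygous for a tamoxifen-activated Cre under the α-MHC promoter (MCM) and for a Rosa26-Il11 transgene, so that tamoxifen starts Il11, a cytokine of the IL6 family, in cardiomyocytes. Mice aged 8 weeks were injected daily with 20 mg/kg tamoxifen for 5 days, and hearts were collected 1, 3 or 6 weeks later. Control mice were littermates with MCM and without Rosa26-Il11 that also received tamoxifen. Their label gives the baseline time point, so each week was compared with the same controls, and time since tamoxifen and age cannot be told apart from the transgene in these comparisons. Uninduced CM-Il11-Tg mice received no tamoxifen and so differed from control in both transgene and drug. Each library came from the heart of 1 mouse (left ventricle, per the study's methods), with 4 libraries a group except male controls and male 6 week hearts, which had 3 each because 1 further library of each carried contradictory labels and was left out of every comparison.

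Il11 itself followed the labels: it was 0 to 0.147 CPM (the name the depositors gave their depth-scaled read counts) in male controls and 0 to 0.166 in female controls, 16.5 to 23.3 and 15.5 to 49.1 in uninduced hearts, and 328 or more in every induced library. The libraries held 16.7 M to 65.3 M gene reads. Female uninduced replicate 3 stood apart with the highest Il11 of its group, and results that rest on it are given with and without it. The atrial marker Myl7 was 52.3 CPM in female 1 week replicate 2 and 346 in female 6 week replicate 2 and at most 0.529 in the other female libraries, and it was not listed in the male table. In these bulk samples, fewer cells of a type and less RNA per cell cannot be told apart.

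To show what the members share in sequence, the coding stretch around the selectivity filter is printed for 6 channels that the results below turn on. Capitals mark the 5 filter codons. The stretches come from the Ensembl canonical transcripts of GENCODE on GRCm39, read 5′ to 3′ on the coding strand.
Kcnd3: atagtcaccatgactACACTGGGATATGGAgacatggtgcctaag
Kcnq1: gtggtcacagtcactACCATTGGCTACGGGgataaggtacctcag
Kcnj2: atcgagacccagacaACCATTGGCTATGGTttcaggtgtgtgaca
Kcnj15: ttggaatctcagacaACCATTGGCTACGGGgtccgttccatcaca
Kcnma1: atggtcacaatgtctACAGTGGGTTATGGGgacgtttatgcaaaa
Hcn2: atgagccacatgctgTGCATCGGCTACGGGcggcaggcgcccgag
The last 3 capital codons spell glycine, tyrosine and glycine in all 6, the filter signature of potassium channels, while Hcn2 starts the filter with a cysteine codon in place of threonine. Kcnj2 and Kcnj15 shared 31 of the 45 bases (68.9%), and Kcnd3 and Kcnq1 30 (66.7%). An in-frame run GGN, then TAC, TAT, TTC or TTT, then GGN was found in 44 of 52 potassium channel genes (84.6%), against 13.4% of 21593 protein-coding genes. The 8 potassium channel genes without it were Kcnab1, Kcnab2, Kcne1, Kcne1l, Kcne4, Kcnip2, Kcnip3 and Kcnmb1, which encode accessory subunits that form no pore.

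In control hearts, levels were compared between genes per kilobase of merged exons. Kcnip2, the subunit that sets the transient outward current, was highest in both sexes at 44.0 CPM per kb in males and 45.0 in females. Kcnj11, the pore of the ATP-sensitive channel, followed with 35.2 and 31.5. Kcnk3, a K2P background channel, stood at 28 and 25.9. Kcnh2 and Kcna5, which carry delayed rectifier currents, and Hcn2 stood at 10.1 to 16.1 CPM per kb in both sexes.

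**Figure D1:**
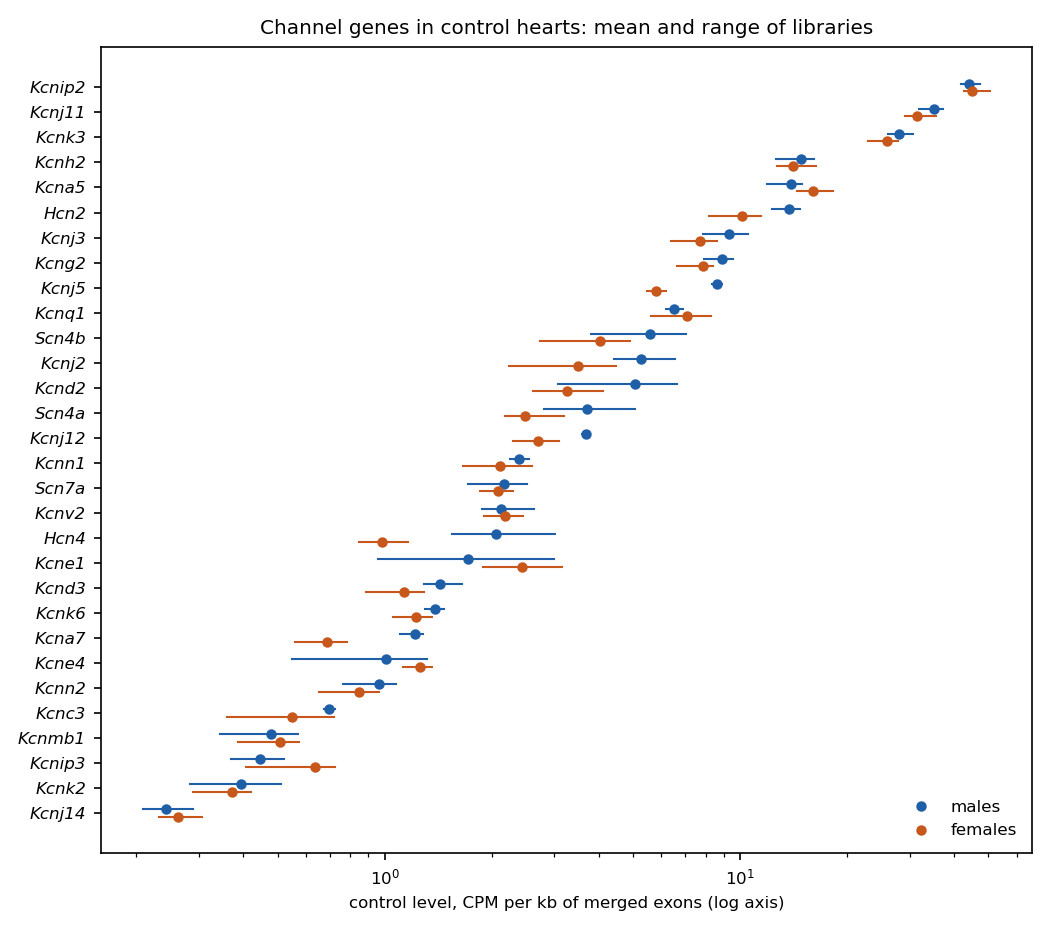
Levels of 30 channel genes in control hearts of each sex, as CPM per kilobase of merged exons on a log axis; points are the mean and lines run from the lowest to the highest library (3 males, 4 females). Kcnip2 was highest in both sexes, at 44.0 in males and 45.0 in females.

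Across the set, genes moved in both directions at every week after induction. A gene was called where limma's moderated test on log2(CPM + 0.5), adjusted over all tested genes by Benjamini-Hochberg, gave an adjusted p under 0.05. At 1 week 14 of the 65 members were higher and 23 lower in males, against 18.9% and 14.6% of all genes tested, and 15 and 15 of 63 in females, against 15.3% and 13.1%. At 3 weeks 16 were higher and 15 lower in males, against 13.2% and 8.1%, and 15 and 17 in females, against 16.8% and 14.5%. At 6 weeks 13 were higher and 15 lower in males, which is 20% and 23.1% of members against 16.2% and 10.9% of all genes. In females 16 were higher and 24 lower at 6 weeks, which is 25.4% and 38.1% against 21.7% and 21%. The members' median log2 difference at 6 weeks was −0.15 in males and −0.26 in females, where that of all genes was −0.01 and −0.02. Of the members tested in males, 8 had no control library at 0.5 CPM and could pass the minimum only through another group (Kcnc2, Kcnd3os, Kcnh1, Kcnj10, Kcnma1, Kcnn4, Kcns3 and Scn2a), and in females 3 did (Kcnj10, Kcnma1 and Kcns3). The counts above include rises among them. Counting only genes with a control library at 0.5 CPM, a choice made after the data were seen, left 10 of 57 members higher (17.5%) in males at 6 weeks and 13 of 60 (21.7%) in females, against 14.7% and 19.8% of all such genes. With 15 lower (26.3%) in males and 24 (40%) in females the falls stood against 11.4% and 22%.

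The balance of rises and falls depended on the scaling. The deposited values summed to 1063756 to 1196278 in control libraries and to 817395 to 1165099 in induced ones, and rescaling each library to the same total raised the median log2 difference of all genes by 0.31, 0.23 and 0.17 in males and by 0.31, 0.31 and 0.35 in females at 1, 3 and 6 weeks. On that scale 16 members were higher and 15 lower in males at 1 week, 18 and 9 at 3 weeks and 16 and 10 at 6 weeks. Of all genes, 37.9% were then called higher and 3.82% lower in males at 1 week, 22.9% and 2.33% at 3 weeks, and 21.3% and 3.51% at 6 weeks. In females the members' counts became 20 and 7, 22 and 9, and 21 and 11, against 41.3% and 3.44%, 41.9% and 3.55%, and 49.3% and 6.16% of all genes. In week order, rescaling ended 8, 6 and 5 of the male falls, 8, 8 and 13 of the female ones, and 0 of the rises. At 6 weeks these were Kcnd2, Kcnd3, Kcnj3, Kcnj11 and Kcnn2 in males, and in females they included Kcna4, Kcna5, Kcnd3, Kcng2, Kcnh2, Kcnj11, Kcnj12, Kcnk3, Kcnk4, Kcnn1, Kcnn2 and Scn4a. Changes below are on the deposited scale, which leaves the median of all genes near 0.

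The sexes, whose controls were separate mice, could be set side by side without being tested against each other. At 6 weeks 13 of the 61 members tested in both were called higher in both and 11 lower in both, against 12.9% and 6.91% of all genes tested in both sexes. At 1 week 14 and 10 were, against 10.9% and 6.32%, and at 3 weeks 15 and 9, against 11.3% and 5.91%. None was called in opposite directions at any of these weeks. Those higher at 6 weeks, among them Kcnma1, Kcnn4 and Kcns3 of the genes with no male control library at 0.5 CPM, included Kcnab2, Kcnd1, Kcne4, Kcnj15, Kcnk13, Kcnma1, Kcnn4, Kcnq1, Kcns3, Kcnt2 and Scn7a. Those lower included Hcn2, Kcna4, Kcnd3, Kcnip2, Kcnj11, Kcnj12, Kcnk2, Kcnn2, Kcnv2 and Scn4a. Of the called members, 26 of 28 in males and 37 of 40 in females had control and 6 week libraries that did not overlap. The calls rest on these same values, so this count adds no support to them. The share among all called genes was not counted.

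**Figure D2:**
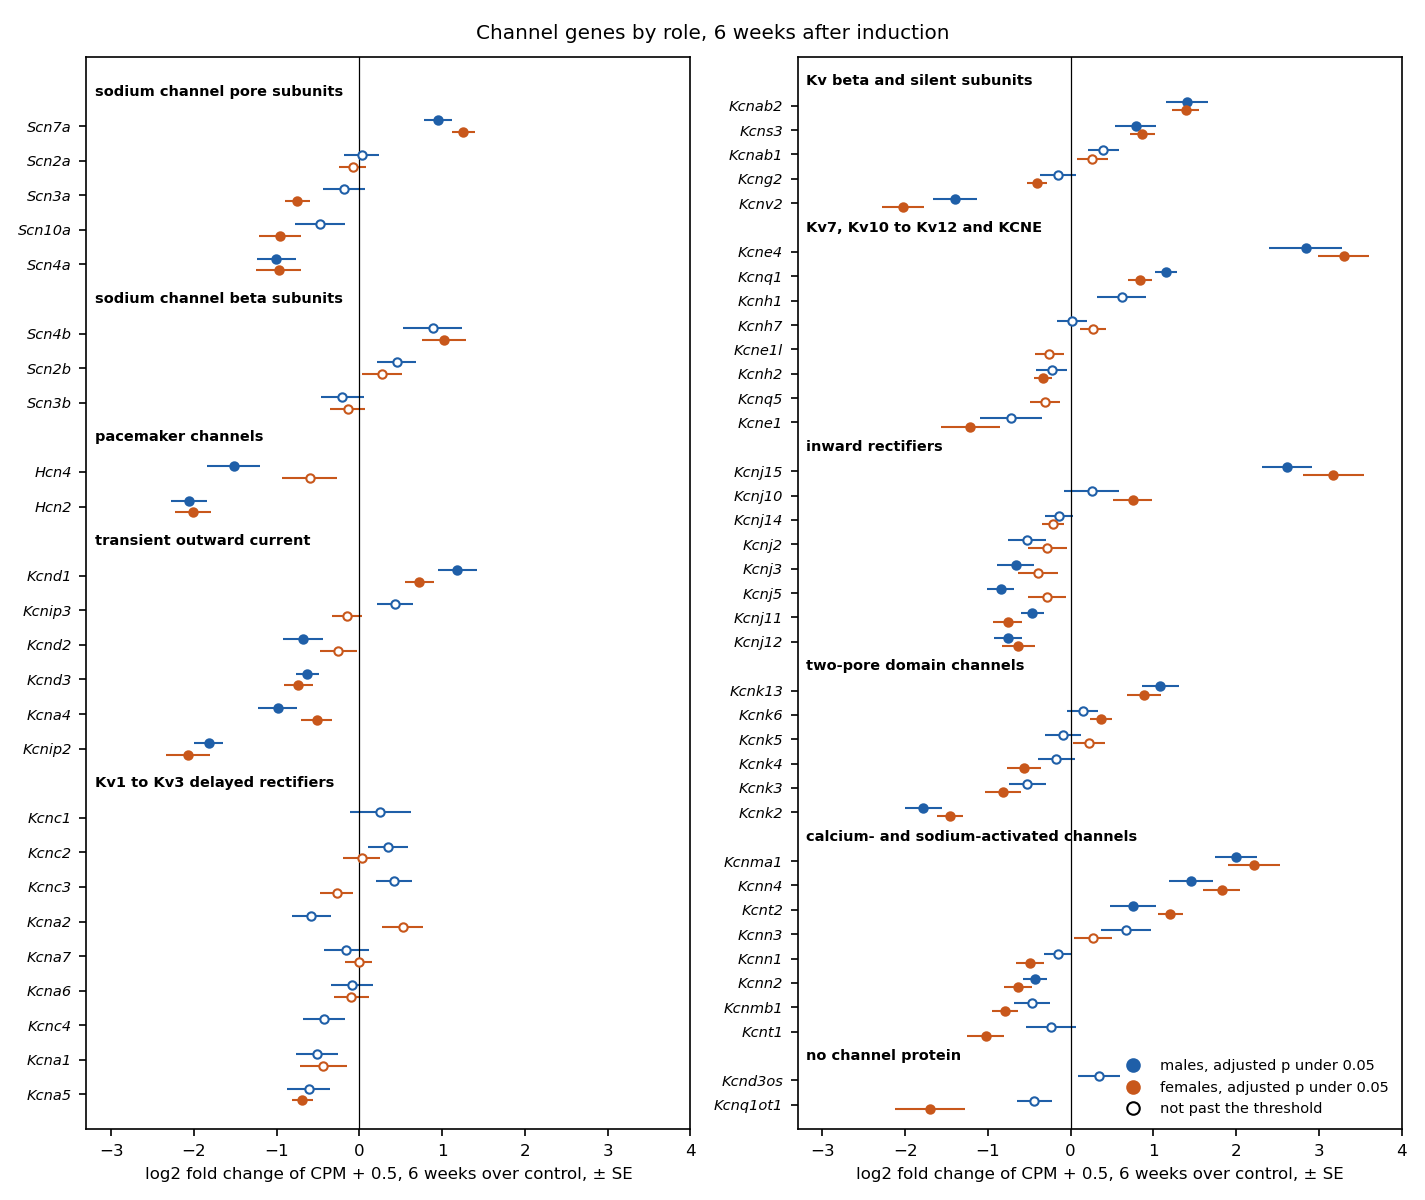
Log2 difference between 6 week and control hearts for the channel genes, grouped by role, with 1 SE, for males and females; filled points had an adjusted p under 0.05. On this scale, which compresses genes of few control reads such as Kcnma1 and Kcns3, Kcne4 and Kcnj15 had the largest differences upwards among the genes drawn, and Hcn2, Kcnip2, Kcnv2 and Kcnk2 were among the largest falls in both sexes.

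Of a list of 23 genes that carry the named currents of the working heart, 12 fell and 3 rose in males at 6 weeks, Kcnq1 among the rises, where 10.9% of all genes were called lower and 16.2% higher. In females 12 fell and 4 rose, Kcnq1 and Scn4b among the rises, against 21% and 21.7%. The list's median log2 difference was −0.63 in males and −0.52 in females, where that of all genes was −0.01 and −0.02. At 1 week 13 fell and 3 rose in males and 8 and 3 in females, and at 3 weeks 13 and 5 in males and 9 and 4 in females. The shares of all genes at these weeks stand with the counts of the whole set. On values rescaled to equal totals 8 fell and 4 rose at 6 weeks in males, with a median of −0.44, and 5 fell and 4 rose in females, with a median of −0.24. Of all genes on that scale 3.51% were called lower and 21.3% higher in males, and 6.16% and 49.3% in females. The median of all genes there was 0.16 in males and 0.33 in females. At 1 and 3 weeks on that scale 10 and 8 fell and 3 and 5 rose in males, and 4 and 5 fell and 5 and 6 rose in females. The shares of all genes at 1 and 3 weeks stand with the rescaled counts of the whole set.

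**Figure D3:**
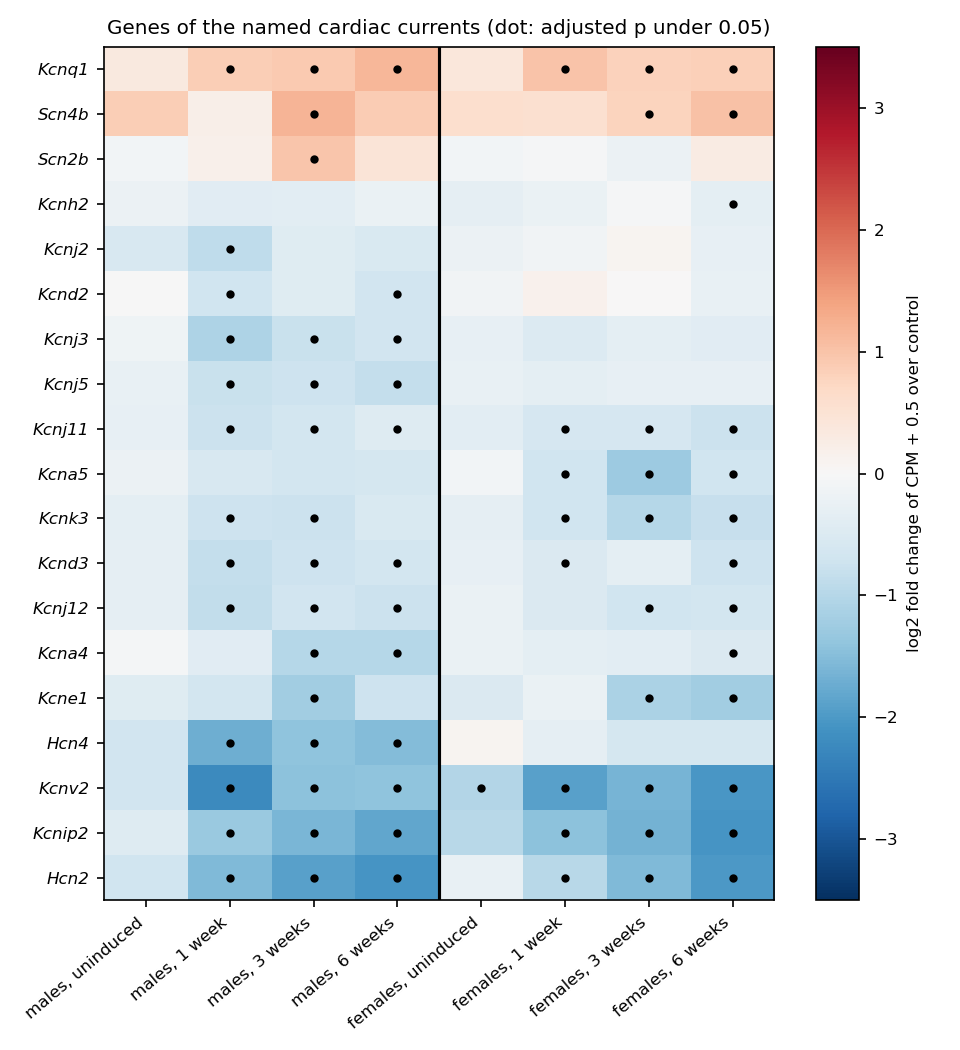
Log2 differences from control of 19 of the cardiac current genes (rows) in uninduced, 1, 3 and 6 week hearts of males and females (columns); a dot marks an adjusted p under 0.05. Hcn2, Kcnip2 and Kcnv2 were lower and Kcnq1 higher at every week in both sexes.

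Among the pacemaker channel genes, Hcn2 fell in both sexes, and Hcn4, the chief isoform of the sinoatrial node, fell in males. Hcn2 (chr10:79552120-79571948, + strand, GRCm39) measured 49.9, 43.7 and 52.2 CPM in male controls. It measured 16.1, 14.1, 16.9 and 18.9 at 1 week, 16.8, 12.8, 8.94 and 13.2 at 3 weeks, and 7.87, 11.3 and 15.9 at 6 weeks, so no induced library reached the lowest control. In females controls held 29, 40.7, 38.5 and 35.8 CPM and 6 week hearts 7.53, 8.76, 8.25 and 9.37. The log2 difference at 6 weeks was −2.06 (SE 0.22, limma adjusted p = 7.64e-07) in males and −2.02 (SE 0.22, adjusted p = 3.21e-07) in females.

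Hcn4 (chr9:58730132-58770458, + strand) was 13.7 ± 5.50 CPM (SD, n = 3) in male controls and 4.30 ± 0.914 (n = 3) at 6 weeks, a log2 difference of −1.52 (SE 0.32, limma adjusted p = 0.00142). In females it went from 6.59 ± 1.08 (n = 4) to 4.13 ± 0.254 (n = 4), a difference of −0.60 (SE 0.34) that did not pass over all 5 groups (adjusted p = 0.154) and did when these 2 groups were fitted alone (adjusted p = 0.00437). Female uninduced replicate 3 held 1.85 CPM, where the other 3 held 10.1 to 10.8.

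Of 6 sinoatrial markers, Isl1 and Vsnl1 were not listed in either table, while Shox2, Tbx3, Tbx18 and Hcn4 were tested. These summed, with Hcn4 included, to 25.1 to 36.8 CPM in male controls and 14.8 to 22.7 at 6 weeks. In females the sums were 18.4 to 28.1 and 15.6 to 19.8 CPM. At 6 weeks Tbx18 was called higher and Hcn4 lower in males, and Tbx18 higher and 0 lower in females. Hcn4 is part of each sum, so the male sums count its fall again. The sum without Hcn4 was not taken. Of 8 regulators of pacemaker tissue 7 were tested. In each sex 1 was called higher at 6 weeks and 0 lower, where 16.2% of all genes in males and 21.7% in females were called higher. The gene in both was Tbx18, a sinoatrial and epicardial transcription factor, at 0.54 (SE 0.19, limma adjusted p = 0.0417) in males and 0.83 (SE 0.12, adjusted p = 1.66e-05) in females.

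Of 6 sodium channel pore genes tested, 1 rose and 1 fell in males at 6 weeks, and 1 rose and 3 fell in females, against 16.2% of all genes higher and 10.9% lower in males and 21.7% and 21% in females. Scn7a, the sodium-sensing channel Nax, rose by 0.95 (SE 0.17) and 1.26 (SE 0.14). Scn4a, the skeletal muscle sodium channel, was lower by −1.0 (SE 0.24) and −0.98 (SE 0.27), the female call being lost on rescaling (limma adjusted p = 0.0587). Of 6 skeletal markers, Myh1, Myh2, Myh4 and Actn3 were not listed, while Tnnt3 and Mylpf were tested. Neither was called at 6 weeks in either sex. Their sum was at most 1.377 CPM at 6 weeks in males and 1.079 in females. It reached 6.87 CPM at 1 week in males and 6.08 at 3 weeks in females. The part of skeletal muscle in the Scn4a result was not tested.

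The beta subunits modulate sodium channel gating and cell adhesion. Scn4b rose in females by 1.02 (SE 0.26, limma adjusted p = 0.00416). In males it was 0.88 (SE 0.36, adjusted p = 0.073), and it passed without 6 week replicate 3 (1.17, adjusted p = 0.0279) and when rescaled to equal totals (1.07, adjusted p = 0.0273). Scn2b was called in males at 3 weeks (0.98, SE 0.22, adjusted p = 0.00299) and in no other week or sex.

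Of 6 transient outward current genes tested, 4 fell in males and 3 in females at 6 weeks, and Kcnd1 rose in both, where 10.9% of all genes in males and 21% in females were called lower. On rescaled values 2 fell and 2 rose in males and 1 fell and 1 rose in females. Of all genes 3.51% were then called lower and 21.3% higher in males, and 6.16% and 49.3% in females. Kcnip2 (chr19:45780278-45804836, − strand), the KChIP2 subunit that traffics Kv4 channels to the membrane, measured 168, 190 and 172 CPM in male controls and 45.5, 42.4 and 63.1 at 6 weeks. In females it measured 171, 202, 177 and 172 CPM, then 38.9, 43.7, 38.0 and 50. The log2 difference was −1.82 (SE 0.17, limma adjusted p = 1.77e-07) in males and −2.07 (SE 0.27, adjusted p = 3.3e-06) in females.

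Kcnd3, a Kv4 pore gene, fell by 0.63 (SE 0.14, limma adjusted p = 0.00186) in males and 0.74 (SE 0.18, adjusted p = 0.00271) in females on the log2 scale. Kcnd2, the other Kv4 pore of the heart, was −0.68 (SE 0.25, adjusted p = 0.0461) in males, a call lost without any library but control replicate 1 (adjusted p = 0.0576 to 0.243), and −0.26 (SE 0.22, adjusted p = 0.37) in females. Kcna4, the slow transient outward pore, was at or below 1 CPM on average and fell by 0.99 (SE 0.24) and 0.52 (SE 0.19). The female Kcna4 call was lost with edgeR (adjusted p = 0.0727), DESeq2 (adjusted p = 0.081) and the 2 groups alone (adjusted p = 0.0847), and without control replicate 1 (adjusted p = 0.0956), control replicate 3 (adjusted p = 0.06) or 6 week replicate 1 (−0.29, adjusted p = 0.136). Rescaling to equal totals ended the Kcnd3 calls of both sexes (adjusted p = 0.056 and 0.0792), the male Kcnd2 call and the female Kcna4 call. Kcnd1, a low-level Kv4 gene, rose by 1.18 (SE 0.23) and 0.72 (SE 0.17).

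Among the delayed rectifiers, Kcna5 (Kv1.5) went from 39.9 ± 5.02 CPM (SD, n = 3) to 26.6 ± 7.59 (n = 3) in males, −0.61 (SE 0.26, limma adjusted p = 0.0896). In females it went from 45.9 ± 4.68 (n = 4) to 28.2 ± 2.74 (n = 4), −0.69 (SE 0.13, adjusted p = 0.000248), a call lost on rescaling (adjusted p = 0.0844).

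The silent and beta subunits, which modify Kv channels without conducting alone, split. Kcnv2 (chr19:27299988-27314579, + strand), a silent subunit, held 9.59, 13.4 and 9.59 CPM in male controls and 3.06, 4.34 and 3.96 at 6 weeks. In females it held 10.3, 12, 12.5 and 9.76 CPM, then 3.33, 1.25, 2.39 and 2.87. Its log2 difference was −1.40 (SE 0.26, limma adjusted p = 0.000524) and −2.03 (SE 0.25, adjusted p = 2.06e-06). Kcnab2, a cytoplasmic beta subunit, rose by 1.41 (SE 0.25) and 1.39 (SE 0.17). Kcns3 rose from 4 control reads in all to 10 to 25 a library in males, a ratio of 12.2 (95% counting interval 4.48 to 46.7). Its male call was lost without control replicate 3 or 6 week replicate 1 (limma adjusted p = 0.074 to 0.0936). In females it rose from 8 control reads to 14 to 18 a library, a ratio of 5.99 (2.86 to 14.5). These intervals pool libraries and cover counting error only. Kcns3 had no control library at 0.5 CPM in either sex, so it could pass the minimum only through another group.

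The slow delayed rectifier pore Kcnq1 rose in both sexes. Kcnq1 (chr7:142660099-142980788, + strand) held 31.8, 35.4 and 33.4 CPM in male controls and 67.5, 63.6 and 98.4 at 6 weeks, a log2 difference of 1.15 (SE 0.14, limma adjusted p = 3.11e-06). In females 28.8, 33.4, 42.6 and 40.8 CPM became 58.9, 72.7, 63.0 and 65.8, a difference of 0.84 (SE 0.15, adjusted p = 0.000108). Its exons share 23.5% of their bases with opposite-strand genes, among them the imprinted antisense RNA Kcnq1ot1, and the sources used here do not give whether counting used strand. Kcnq1ot1 did not rise with it: it was −0.44 (SE 0.21, adjusted p = 0.131) in males and −1.70 (SE 0.42, adjusted p = 0.00323) in females. In females 3 of the 4 libraries at 6 weeks had 2.32 to 3.64 CPM of Kcnq1ot1, and the same 3 had 254 to 330 CPM of the nuclear RNA Malat1, where female controls had 696 to 1235. The part of RNA quality in this fall was not tested.

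Kcne4 (chr1:78794475-78797745, + strand), a subunit that can silence KCNQ1 channels, rose at every week in both sexes. Male controls held 1.46, 3.07 and 3.5 CPM, 1 week hearts 55.9, 33.8, 28.2 and 29.9, 3 week hearts 32.8, 29.1, 15.4 and 11.3, and 6 week hearts 26.8, 33.4 and 10.6. Female controls held 3.23, 3.53, 3.00 and 3.6 CPM and 6 week hearts 30.5, 40.5, 53.0 and 29.4. The lowest induced library of each sex lay above its highest control by more than the whole control range. The log2 difference at 6 weeks was 2.84 (SE 0.44, limma adjusted p = 6.93e-05) and 3.30 (SE 0.31, adjusted p = 3.68e-08). Kcne1, the partner of Kcnq1 in the slow delayed rectifier, was −0.72 (SE 0.37, adjusted p = 0.164) in males and −1.21 (SE 0.35, adjusted p = 0.00965) in females. Kcnh2 (the rapid delayed rectifier) was −0.23 (SE 0.18, adjusted p = 0.378) and −0.33 (SE 0.11, adjusted p = 0.0204), and the female value turned to 0.06 (adjusted p = 0.624) on rescaling. The female Kcnh2 call was also lost without control replicate 2 (adjusted p = 0.0822).

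**Figure D4:**
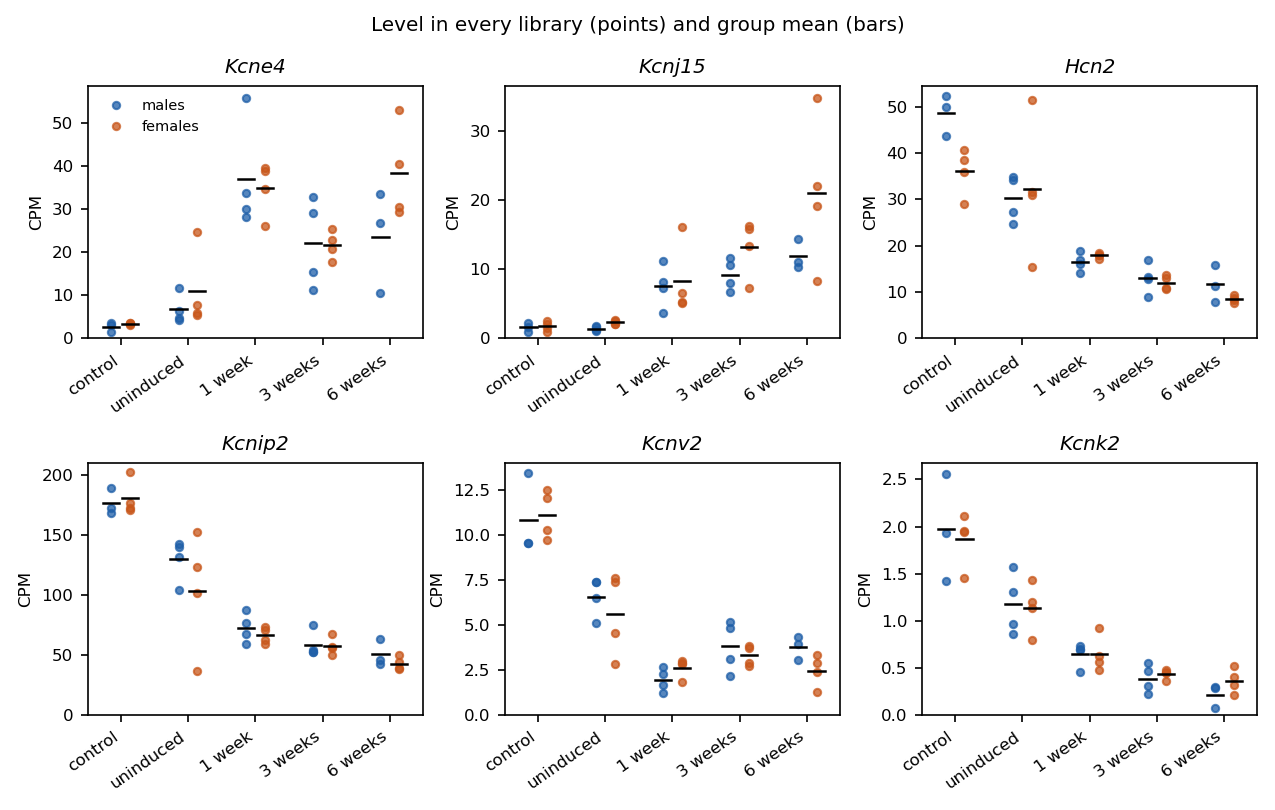
CPM of 6 channel genes in every library of the 5 groups, by sex, with group means as bars. Kcne4 and Kcnj15 rose and Hcn2, Kcnip2, Kcnv2 and Kcnk2 fell in both sexes. The genes were picked among called members whose control and 6 week libraries did not overlap.

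The inward rectifiers hold the resting potential. Of 8 tested, 4 fell and Kcnj15 rose in males at 6 weeks, and 2 fell in females, where Kcnj15 and Kcnj10 rose. Of all genes 10.9% were called lower in males and 21% in females, and the female count of falls was near that share. Called higher were 16.2% and 21.7%, and the counts of rises were near those shares. On rescaled values 2 fell in males and 0 in females, against 3.51% and 6.16% of all genes. The female Kcnj10 call was lost without control replicate 4 or 6 week replicate 2 or 3 (adjusted p = 0.0546 to 0.0735). Kcnj15 (Kir4.2; chr16:95058417-95101119, + strand) held 0.899, 1.55 and 2.26 CPM in male controls and 10.3, 14.3 and 11 at 6 weeks. In females it held 1.46, 0.871, 2.50 and 2.05 CPM, then 8.32, 22, 34.7 and 19.1. Its log2 difference was 2.62 (SE 0.30, limma adjusted p = 2.28e-06) and 3.17 (SE 0.37, adjusted p = 8.95e-07), while uninduced hearts differed from control by −0.11 (SE 0.28) and 0.38 (SE 0.37) and were not called.

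Kcnj12 (Kir2.2) fell by 0.76 (SE 0.17) in males and 0.63 (SE 0.20) in females, and Kcnj11 (Kir6.2) by 0.46 (SE 0.14) and 0.76 (SE 0.18). Rescaling ended both Kcnj11 calls and the female Kcnj12 call, and the male Kcnj11 call was also lost without any of 4 libraries (control replicates 1 and 3, 6 week replicates 1 and 3, adjusted p = 0.0736 to 0.109). The female Kcnj12 call was lost without control replicate 2 (adjusted p = 0.0531) or 6 week replicate 1 (adjusted p = 0.0515). Kcnj5 and Kcnj3, which together form the muscarinic channel, fell in males by 0.85 (SE 0.16) and 0.67 (SE 0.23). In females they were −0.29 (SE 0.23) and −0.39 (SE 0.24), and neither passed. The male Kcnj3 call was lost on rescaling (adjusted p = 0.143) and without any library but control replicate 4 (adjusted p = 0.0511 to 0.133). Kcnj2 (Kir2.1), the main carrier of the classical inward rectifier, was −0.53 (SE 0.23, limma adjusted p = 0.102) and −0.28 (SE 0.24, adjusted p = 0.358). In males it passed without 6 week replicate 4 (−0.81, adjusted p = 0.0113).

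Of 6 K2P background channels, 1 fell and 1 rose in males at 6 weeks, and 3 fell and 2 rose in females. In males this is near the 10.9% of all genes called lower and 16.2% called higher, and in females those shares were 21% and 21.7%. Kcnk2 (TREK-1, a stretch-sensitive channel; chr1:188940126-189134470, − strand) fell from 1.42, 1.93 and 2.56 CPM to 0.291, 0.282 and 0.0700 in males. In females it fell from 2.11, 1.45, 1.95 and 1.94 CPM to 0.317, 0.516, 0.211 and 0.401. The log2 differences were −1.78 (SE 0.22, limma adjusted p = 5.17e-06) and −1.46 (SE 0.16, adjusted p = 3.21e-07), which understate the fold at these low values because of the pseudocount. Kcnk3 (TASK-1) went from 240 ± 20.1 CPM (SD, n = 4) to 136 ± 8.92 (n = 4) in females, −0.82 (SE 0.22, adjusted p = 0.00527), a call lost on rescaling (adjusted p = 0.0695). In males it was −0.52 (SE 0.22, adjusted p = 0.0855), and it passed without 6 week replicate 4 (−0.84, adjusted p = 0.00244). Kcnk13 rose by 1.09 (SE 0.23) and 0.88 (SE 0.20).

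Of 8 channel genes opened by calcium or sodium, 3 rose at 6 weeks in each sex, Kcnma1, Kcnn4 and Kcnt2, while 1 fell in males and 4 in females. Of all genes 16.2% were called higher in males and 21.7% in females, and 10.9% and 21% lower. The male count of falls was near that share. On rescaled values 3 rose and 0 fell in males, against 21.3% and 3.51% of all genes. In females 4 rose and 2 fell, against 49.3% and 6.16%. Kcnma1 in both sexes and Kcnn4 in males had no control library at 0.5 CPM. Kcnma1 (BK; chr14:23339499-24064559, − strand) had 0 to 5 reads in each male control and 59 to 74 at 6 weeks, a ratio of 24.6 (95% counting interval 12.2 to 57.7). Female controls had 1 to 4 reads and 6 week hearts 37 to 125, a ratio of 23.0 (11.9 to 50.7). These intervals cover counting error only. Kcnn4, the intermediate-conductance channel of immune and fibroblast cells, rose by 1.45 (SE 0.27) and 1.83 (SE 0.22), and Kcnt2 by 0.75 (SE 0.28) and 1.2 (SE 0.15). The male Kcnt2 call was close to the threshold (limma adjusted p = 0.0497) and was lost without control replicate 1 or 3 or 6 week replicate 1 or 3 (adjusted p = 0.0997 to 0.155). Kcnn2, a small-conductance channel of atrial and ventricular muscle, fell by 0.43 (SE 0.15) and 0.64 (SE 0.17). Both Kcnn2 calls were lost on rescaling (adjusted p = 0.269 and 0.18), and the male call without control replicate 1 or 3 or 6 week replicate 1 or 4 (adjusted p = 0.0656 to 0.151).

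Markers of other cells moved with these genes. Of 4 channel genes known from immune cells, 3 were tested: Kcnn4 and Kcnk13 rose at every week in both sexes, and Kcnk6 in females at 1 and 6 weeks. Over these weeks 13.2% to 18.9% of all genes in males and 15.3% to 21.7% in females were called higher. Kcnn4 had no male control library at 0.5 CPM, so in males it could pass the minimum only through another group. The Kcnk6 call at 6 weeks was lost without any library but control replicate 4 and 6 week replicate 4 (adjusted p = 0.0512 to 0.108). The 7 macrophage markers summed to 115 to 200 CPM in male controls and 469 to 686 at 6 weeks, and to 117 to 149 and 600 to 689 in females, with 7 of 7 called higher in both sexes. The 6 fibroblast markers summed to 509 to 699 CPM and then 2412 to 2878 in males, and to 606 to 810 and then 2910 to 5467 in females, with 5 of 6 higher. The 9 cardiomyocyte markers summed to 58358 to 70605 CPM and then 39636 to 49774 in males, with 1 of 9 called lower, and to 44038 to 63572 and then 37526 to 47902 in females, with 4 of 9 lower. The endothelial sum went from 988 to 1125 CPM to 648 to 832 in males, with 3 of 7 called lower. In females it went from 935 to 1050 CPM to 596 to 801, with 5 of 7 lower. At 6 weeks 16.2% of all genes in males and 21.7% in females were called higher, and 10.9% and 21% lower. The male cardiomyocyte count was near that share. The sums are on the deposited scale and were not rescaled to equal totals. The part of these markers in the channel results was not tested.

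In females, leaving out the 2 libraries with Myl7 above 10 CPM, an alternative added after the data were seen, gave 26, 32 and 36 called members at 1, 3 and 6 weeks in place of 30, 32 and 40.

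Genes whose proteins bind, anchor or accompany the channels fell where they were called. Of 20 listed partners 16 were tested, and at 6 weeks limma called 9 lower in each sex, where 10.9% of all genes in males and 21% in females were. These calls are on the deposited scale. Whether they hold on values rescaled to equal totals or with a library left out was not examined. The 5 lower in both were Abcc8, a sulfonylurea receptor of ATP-sensitive channels (−0.53, SE 0.17, and −1.15, SE 0.18), the sodium channel regulator Fgf13 (−0.46 and −0.67), the anchors Ank2 (−0.86 and −0.68) and Ank3 (−0.82 and −0.66), and the cation channel Trpm4 (−0.50 and −0.77).

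Before tamoxifen, few members passed the threshold against control. In males limma called 1 member higher and 0 lower, against 0.561% and 0.0354% of all genes, while 17 members (26.2%) had an unadjusted p under 0.05 in either direction, against 10.6% of all genes. The counts were the same with edgeR, and DESeq2 called 2 higher. Rescaling to equal totals gave 3 higher and 0 lower, against 1.11% and 0.0236% of all genes. Kcne4 and Hcn2 were not called in uninduced males, although their libraries did not overlap control. Kcne4 held 4.19 to 11.6 CPM, against 1.46 to 3.5 in control. Hcn2 held 6.95 to 9.83 CPM per kb of merged exons, against 12.3 to 14.7. In females 5 were higher and 1 lower, against 2.41% and 0.466%, and 6 and 1 on the rescaled values, against 4.27% and 0.177%. An unadjusted p under 0.05 was found for 21 members (33.3%) in females, against 15.4% of all genes. Those higher included Kcne4 (1.29, limma adjusted p = 0.0217), Kcnn3, a small-conductance channel (1.09, adjusted p = 0.00908), and Kcnab2 (0.89, adjusted p = 0.00361). Kcnv2 was lower (−1.02, adjusted p = 0.0292).

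Female uninduced replicate 3 had 24.6 CPM of Kcne4 where the other 3 had 5.41 to 7.73, 15.3 of Hcn2 where they had 30.9 to 51.4, and 36.4 of Kcnip2 where they had 102 to 152. Without it Kcne4 was 0.82 (limma adjusted p = 0.0215). The Kcnv2 call was lost (−0.75, adjusted p = 0.128) and Kcnip2 (−0.54, adjusted p = 0.0368, from −0.97, adjusted p = 0.0534) and Hcn4 (0.64, adjusted p = 0.0369) gained 1. The Kcne4 call was also lost without control replicate 1, 2 or 3 (adjusted p = 0.0562 to 0.0631), and the Kcnv2 call without control replicate 1, 2 or 3 or uninduced replicate 4 (adjusted p = 0.0528 to 0.0879). With the 2 groups fitted alone both calls were lost (adjusted p = 0.19 for Kcne4 and 0.121 for Kcnv2).

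Between 1 and 6 weeks few members were called. In males limma called 0 members, against 0.165% of all genes, edgeR 0 and DESeq2 2, and 14 members (21.5%) had an unadjusted p under 0.05, against 15.4% of all genes. In females 14 (22.2%) did, against 12.6%. There Hcn2 was called, against 1.03% of all genes, going from 17.1, 18.5, 18.0 and 18.0 CPM to 7.53, 8.76, 8.25 and 9.37. Its log2 difference was −1.04 (SE 0.22, limma adjusted p = 0.0177). The call was lost without 1 week replicate 3 (adjusted p = 0.0616) or 4 (adjusted p = 0.0604), or 6 week replicate 2 (adjusted p = 0.0521) or 3 (adjusted p = 0.0562). On values rescaled to equal totals 2 members were higher and 1 lower in females. In males the Hcn2 difference was −0.52 (SE 0.20, adjusted p = 0.241).

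Promoter sequence is printed for Kcne4, which rose at every week, and for Kcnip2 and Hcn2, among the largest falls, as 250 bases before the RefSeq start on GRCm38.p6, another build than the files'. Capitals mark each CANNTG (E-box) match, found on both strands since the motif is its own reverse complement.
Kcne4: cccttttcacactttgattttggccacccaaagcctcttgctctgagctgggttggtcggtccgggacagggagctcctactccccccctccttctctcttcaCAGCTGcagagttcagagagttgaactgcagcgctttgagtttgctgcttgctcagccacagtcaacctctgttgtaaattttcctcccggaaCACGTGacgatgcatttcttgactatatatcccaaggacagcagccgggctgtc
Kcnip2: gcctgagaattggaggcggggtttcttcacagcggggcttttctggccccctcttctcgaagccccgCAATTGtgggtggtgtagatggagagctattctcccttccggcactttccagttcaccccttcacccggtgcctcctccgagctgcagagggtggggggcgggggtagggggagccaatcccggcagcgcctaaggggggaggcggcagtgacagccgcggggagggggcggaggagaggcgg
Hcn2: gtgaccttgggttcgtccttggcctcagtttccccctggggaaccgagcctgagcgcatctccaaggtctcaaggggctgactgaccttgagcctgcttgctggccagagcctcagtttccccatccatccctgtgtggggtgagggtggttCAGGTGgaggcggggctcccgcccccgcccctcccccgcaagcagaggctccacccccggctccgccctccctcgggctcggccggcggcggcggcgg
Kcne4 (chr1:78816661-78816910, + strand) held 2 matches, Kcnip2 (chr19:45816064-45816313, − strand) 1 and Hcn2 (chr10:79716384-79716633, + strand) 1. The 3 windows held no TTCNNNGAA, the core of STAT sites, and no TATAAA. Of the 47 members with a RefSeq window, 34 (72.3%) held CANNTG, against 66.2% of 32851 windows. A member counted if any of its windows matched, while the background counted single windows. The units therefore differ for each motif here. TTCNNNGAA was in 5 (10.6%) against 7.02%, and TATAAA in 1 (2.13%) against 12.4%. These are matches of letters and say nothing of binding.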

How the data were processed

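Heart RNA from 40 mice was sequenced as polyA-selected, strand-preserving libraries with 60 base paired reads. The authors aligned reads with STAR to GRCm39, counted them per Ensembl gene with featureCounts and scaled them with edgeR, and whether counting used strand is not given in the sources used here. The deposited values, called CPM by the authors, are a signal: read counts divided by 1 factor per library, which do not sum to the same total. Dividing by each library's smallest step gave whole reads for 100% of values within 0.001.

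Groups came from the labels, by sex, and 38 of 40 libraries entered comparisons. The 2 male libraries left out have a title and a description that name different groups. Each sex was fitted apart, with its 5 groups in 1 model, in limma 3.58.1 (R 4.3.3) on log2(CPM + 0.5) with a mean-variance trend, for genes at 0.5 or more in 3 or more libraries, and Benjamini-Hochberg adjustment over all of them. Fold changes are on that log2 scale and understate the change of low genes. The p-values set each difference against the spread between mice within groups, pooled over the 5 groups of a sex and moderated across genes. edgeR 4.0.16 and DESeq2 1.42.0 on the recovered reads were alternatives, beside other pseudocounts, filters, scalings, a replicate block, the 2 groups alone, a fold minimum and leaving out each library. At 6 weeks edgeR called 28 members in males and 39 in females. Rescaling to equal totals, counting only genes with a control library at 0.5 CPM and leaving out the libraries with Myl7 were alternatives chosen after seeing the data. Confidence intervals are at 95%, and those of read ratios are exact and cover counting error only. Figures and intervals used Python 3.11.15, scipy 1.17.1 and matplotlib 3.10.9. The fits were tested on simulated data with known changes.

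Named genes were the 23 cardiac current genes, the 5 largest rises and 5 largest falls at 6 weeks per sex among called members whose groups did not overlap, members of any count of 5 or fewer, and listed partners called at 6 weeks in both sexes. The other members called in both sexes were added after their values were seen. Some members are not reported here, although the counts include them. The members and lists were chosen with earlier results of these data known.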

Additional observations from a re-analysis of the deposited data

Results flagged for a closer look

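In groups of 4 libraries, 10 of 192 gene and group combinations had a library far from the other 3, by Dixon's gap test at its 95% level, which chance gives about 1 time in 20. Female uninduced replicate 3 held 2 of them, with 24.6 CPM of Kcne4 against 5.41 to 7.73 and 1.85 of Hcn4 against 10.1 to 10.8. Female 1 week replicate 2, a library with Myl7, held 16.0 CPM of Kcnj15 against 5.07 to 6.58 and 1.82 of Kcnv2 against 2.81 to 2.97. Female 3 week replicate 2 held 150.2 CPM of Kcnk3 against 110.8 to 112.7. The other 3 female values were 26.6 CPM of Kcnd2 in 3 week replicate 1 (16.0 to 17.6), 10.6 of Kcnd3 in 1 week replicate 1 (6.51 to 7.16) and 30.6 of Kcna5 in uninduced replicate 2 (46.3 to 48.6). In males they were 74.8 CPM of Kcnip2 in 3 week replicate 1 (52.0 to 54.1) and 0.449 of Kcnk2 in 1 week replicate 4 (0.692 to 0.731).

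For 4 genes at 1 of the weeks, all induced libraries of 1 sex lay above that sex's control mean and all of the other sex lay below theirs, and the difference between the sexes was not tested. Kcna2 averaged 1.42 CPM at 6 weeks against 2.42 in control males, and 2.26 against 1.42 in females. Kcna7 averaged 4.35 CPM at 3 weeks against 4.95 in males, and 3.25 against 2.80 in females. Kcnj14 averaged 0.949 CPM at 1 week against 0.658 in males, and 0.558 against 0.711 in females. Scn2b averaged 1.5 CPM at 3 weeks against 0.497 in males, and 0.457 against 0.621 in females.

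The male library described as 6 weeks and titled as a control was used in no comparison. It held 26.3 CPM of Kcne4, 13.5 of Kcnj15 and 511 of Il11, where the highest male controls held 3.5, 2.26 and 0.147. The library described as control and titled as 6 weeks, also left out, held 2.27, 1.55 and 0.597.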

How the results depend on the processing

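For 1, 3 and 6 weeks against control, the counts of called members stayed within 1.5 times under each other setting except a fold minimum. That minimum, an absolute log2 difference of at least 1, left 17, 17 and 16 members in males and 11, 18 and 17 in females. In uninduced males the count of 1 became 2 with the 2 groups alone, 2 with DESeq2 and 3 when rescaled to equal totals. In uninduced females the count of 6 became 2 with the 2 groups alone. From 1 to 6 weeks the male count of 0 became 2 with DESeq2, and the female count of 1 became 3 with a pseudocount of 2, 2 with the 2 groups alone, 2 with DESeq2 and 3 when rescaled to equal totals. In females without the 2 libraries with Myl7 over 10 CPM the count from 1 to 6 weeks stayed 1, but it was a rise and Hcn2 was not called.

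Leaving out 1 library at a time gave 30 to 36, 26 to 33 and 22 to 30 called members in males at 1, 3 and 6 weeks, and 26 to 30, 27 to 31 and 36 to 40 in females. Uninduced hearts gave 1 to 2 in males (2 without control replicate 1 or uninduced replicate 4) and 3 to 8 in females (3 without control replicate 2). From 1 to 6 weeks males gave 0 to 1 (1 without 6 week replicate 1) and females 0 to 4 (4 without 1 week replicate 2 or 6 week replicate 1). Over the rule's named genes, 62 of 2072 such refits lost a call and 18 gained 1. Rescaling to equal totals lost 27 of 280 named results, gained 7 and turned the sign of 1, female Kcnh2 at 6 weeks, from −0.33 to 0.0649. The cause was not tested.

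Replicate numbers did not pair libraries: same-numbered libraries of different groups correlated at 0.0132 on average in males and 0.0255 in females, and at −0.134 and −0.342 at the lowest. With the replicate number as a block, 35, 32 and 26 members were called in males and 30, 31 and 40 in females at 1, 3 and 6 weeks, 1 and 7 in uninduced hearts, and 0 and 2 from 1 to 6 weeks.

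Depth limits the rare channels: Kcnma1 and Kcns3 rest on 0 to 5 reads in each control library. At 6 weeks every called member was refitted under each setting.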
